A study of Mus musculus with 6 samples.

Results

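The epidermal differentiation complex is a gene cluster on mouse chromosome 3 that holds the genes for the outer layer of skin and is flanked on both sides by genes of the S100 calcium-binding proteins. Its chromatin accessibility was examined in small intestinal crypts, where 91 of 123510 ATAC-seq peaks were assigned to it or to neighbouring sequence. Members were selected on the gene name a peak carries in the deposited table, which is the closest gene within 5 kb, or on position. There were 10 peaks named for S100a genes, 29 peaks named for skin genes and 52 peaks without a gene name whose start lay between 91.9 and 94.0 Mb of chromosome 3. The skin gene peaks comprised 15 for Lce, 7 for Sprr, 3 for Flg or Flg2, 3 for Tchh or Tchhl1 and 1 for Lor, and no peak carried the name of Crnn, Rptn, Hrnr or Ivl. All peaks were called by the authors from the reads of these libraries, so that the level of a member helped to choose it and is given here as a description, without a test.

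ATAC-seq, which reads out open chromatin by where a transposase inserts adapters, was performed on nuclei of whole small intestinal crypts from C57BL/6 mice. There were 3 WT libraries and 3 libraries from mice with Vil-Cre mediated KO of Smarcad1 (Smarcad1-KO), a SNF2-type chromatin remodeler. In this model Cre is driven by the Villin promoter, which is active in the intestinal epithelium, and removes floxed exons 12 to 14 of Smarcad1. Other cells that remained in the crypt preparation would keep the gene. The floxed line goes back to 1 targeted ES cell clone, and the study used males throughout per its methods, while no age is given in the sources used here. The WT labels name neither a Cre nor a floxed allele. The WT libraries held 6180717 to 16301164 reads in peaks and the KO libraries 4339306 to 7721797, with the lowest depth in KO replicate 3. The 4 peaks named for Smarcad1 left the deleted exons uncovered, with 0 peaks over them, so the genotype labels could not be checked from these data. The labels do not state from how many animals each library was made, and p-values therefore measure the spread between these libraries.

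Proteins of the complex build the cornified envelope, the cross-linked shell that replaces the plasma membrane of a dying keratinocyte. Loricrin, involucrin, the small proline-rich proteins (Sprr) and the late cornified envelope proteins (Lce) are cross-linked into this shell, while filaggrin, hornerin, repetin, cornulin and trichohyalin carry an S100-like calcium-binding domain fused to long repeats and act in keratin bundling and in the hair follicle. S100 proteins are small calcium sensors that bind partner proteins in many cell types, including simple epithelia such as the gut. Most of the skin genes are known as products of stratified epithelia, while some Sprr genes are also known from the gut.

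Promoter windows, from 250 bases before to 50 bases after a gene start, were taken from RefSeq (GRCm38.p6), where 54 of the 58 annotated genes of the families matched by symbol. The remaining 4 were Lce1f, S100a2, S100a10 and S100a14. They are shown for 3 S100a genes and 3 skin genes, together with the central 300 bases of the 3 unnamed peaks whose levels differed most between KO and WT, so that the elements at the starts and at these peaks can be compared. Capitals mark matches, on either strand, to 6 motifs: the TATA box spelled TATAAA, the AP-1 motif TGANTCA, the HNF4 motif CAAAGTCCA, the CDX motif TTTATNG, the KLF/SP box GGGNGGGG and the GATA motif CTTATCT. The opposite strand of the TATA box can share bases with the CDX pattern, and each motif was counted on its own.
S100a11 promoter (chr3:93520246-93520545, plus strand): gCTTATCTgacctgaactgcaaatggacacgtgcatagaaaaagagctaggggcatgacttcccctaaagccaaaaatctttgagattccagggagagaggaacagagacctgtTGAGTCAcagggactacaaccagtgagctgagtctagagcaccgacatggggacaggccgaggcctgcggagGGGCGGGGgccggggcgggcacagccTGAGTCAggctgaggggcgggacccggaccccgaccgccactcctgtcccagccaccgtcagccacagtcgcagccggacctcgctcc
S100a1 promoter (chr3:90514281-90514580, minus strand): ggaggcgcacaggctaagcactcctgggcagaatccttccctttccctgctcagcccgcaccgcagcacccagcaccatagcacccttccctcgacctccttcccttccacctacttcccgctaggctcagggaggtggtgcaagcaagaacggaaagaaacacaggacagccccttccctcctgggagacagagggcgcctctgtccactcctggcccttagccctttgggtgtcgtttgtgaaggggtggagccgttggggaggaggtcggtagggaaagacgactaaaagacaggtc
S100a6 promoter (chr3:90612644-90612943, plus strand): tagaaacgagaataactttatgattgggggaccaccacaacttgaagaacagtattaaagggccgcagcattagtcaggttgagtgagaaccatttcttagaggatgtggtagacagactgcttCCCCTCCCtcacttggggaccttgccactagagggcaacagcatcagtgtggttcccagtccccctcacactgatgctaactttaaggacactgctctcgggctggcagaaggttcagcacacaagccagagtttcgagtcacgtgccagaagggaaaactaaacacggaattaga
Lor promoter (chr3:92083093-92083392, minus strand): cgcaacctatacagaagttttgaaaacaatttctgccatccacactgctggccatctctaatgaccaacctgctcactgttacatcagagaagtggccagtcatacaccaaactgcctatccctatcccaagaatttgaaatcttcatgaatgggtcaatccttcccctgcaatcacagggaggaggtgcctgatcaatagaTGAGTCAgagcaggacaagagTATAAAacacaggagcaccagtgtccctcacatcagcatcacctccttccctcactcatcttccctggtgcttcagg
Sprr1a promoter (chr3:92485832-92486131, minus strand): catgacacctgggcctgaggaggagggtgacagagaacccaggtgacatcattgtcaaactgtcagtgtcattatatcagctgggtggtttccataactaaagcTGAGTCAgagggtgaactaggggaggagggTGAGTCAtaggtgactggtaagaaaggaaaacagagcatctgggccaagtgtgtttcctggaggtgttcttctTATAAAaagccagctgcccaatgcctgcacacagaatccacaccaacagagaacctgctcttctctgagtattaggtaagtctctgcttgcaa
Flg promoter (chr3:93273296-93273595, plus strand): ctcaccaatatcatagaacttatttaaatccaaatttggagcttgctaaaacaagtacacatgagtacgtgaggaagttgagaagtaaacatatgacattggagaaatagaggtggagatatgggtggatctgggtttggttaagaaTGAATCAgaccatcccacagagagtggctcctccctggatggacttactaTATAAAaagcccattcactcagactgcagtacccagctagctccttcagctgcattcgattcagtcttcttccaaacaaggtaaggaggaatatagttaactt
Unnamed peak between Lce3e and Lce3f (chr3:92978701-92979000, plus strand): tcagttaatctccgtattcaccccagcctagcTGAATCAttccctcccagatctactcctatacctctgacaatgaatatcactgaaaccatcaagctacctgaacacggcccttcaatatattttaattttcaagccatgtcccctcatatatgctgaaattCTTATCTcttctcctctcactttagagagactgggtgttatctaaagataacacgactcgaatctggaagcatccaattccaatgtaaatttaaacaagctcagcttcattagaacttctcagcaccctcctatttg
Unnamed peak on the Gm5773 side (chr3:93755551-93755850, plus strand): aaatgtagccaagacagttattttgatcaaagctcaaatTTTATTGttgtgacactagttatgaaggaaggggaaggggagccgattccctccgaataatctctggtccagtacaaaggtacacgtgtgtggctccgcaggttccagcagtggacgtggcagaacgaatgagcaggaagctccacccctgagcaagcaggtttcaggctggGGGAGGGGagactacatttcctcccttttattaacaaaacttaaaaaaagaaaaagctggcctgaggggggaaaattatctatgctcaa
Unnamed peak on the Tdpoz3 side (chr3:93863851-93864150, plus strand): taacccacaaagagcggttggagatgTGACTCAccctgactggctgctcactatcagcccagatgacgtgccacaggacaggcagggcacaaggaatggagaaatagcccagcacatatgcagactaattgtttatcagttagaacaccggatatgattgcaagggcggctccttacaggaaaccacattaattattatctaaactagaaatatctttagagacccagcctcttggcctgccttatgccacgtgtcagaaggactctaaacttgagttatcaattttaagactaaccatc

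Skin and S100a genes had different letters at their starts. A TATA box was found in 20 of 43 skin gene windows (46.5%), in 5 of 16 S100a windows (31.2%) and in 13.6% of all 32851 windows of the table. The 16 S100a windows belong to 12 genes, with 4 for S100a3 and 1 for S100a7l2, which is not among the 58 annotated genes, and counted once per annotated gene the TATA box was found for 4 of 11 S100a genes (36.4%). AP-1, the motif of Fos and Jun factors, was found in 37.2% of skin gene windows, 18.8% of S100a windows and 7.81% of all windows. The KLF/SP box showed the opposite order, with 6.98% of skin gene windows, 31.2% of S100a windows and 33.2% of all windows. Median GC content was 46.0% for skin gene windows, 53.5% for S100a windows and 52.7% for all windows. These differences describe the families and carry no test, because many Sprr and Lce promoters are copies of each other. The skin gene shares did not hold for every family. No Lce window held an AP-1 match, and of the Lce windows only those of Lce6a, Lce1d, Lce3e and Lce1m held a TATA box. None of the printed skin gene windows is of an Lce gene. The CDX pattern, bound by intestinal homeobox factors, was in 20.9% of skin gene windows, 18.8% of S100a windows and 10.9% of all windows, the HNF4 motif was in 0 of both and 0.475% of all, and GATA was in 4.65%, 6.25% and 3.04%. A match is a run of letters and not a bound site.

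Few starts of the skin genes were open in crypts. In the GENCODE vM21 annotation, 7 of 14 S100a genes (50.0%) and 11 of 44 skin genes (25.0%) had a peak within 1 kb of their start, against 59.2% of 21951 protein-coding genes. By family, a start peak was found for 7 of 21 Lce genes, 2 of 14 Sprr genes, Lor and Tchhl1, and for neither Flg nor Flg2, Crnn, Rptn, Hrnr or Ivl. The 7 S100a genes were S100a1, S100a4, S100a10, S100a11, S100a13, S100a14 and S100a16. S100a3 was not counted by its GENCODE gene start, but a RefSeq promoter window of S100a3 (chr3:90586702-90587001) lay in a peak. S100a1 and S100a13 start next to each other on opposite strands, and 1 peak named for S100a1 covers both starts. Of the printed windows, those of S100a11, S100a1, Lor and Sprr1a lay in a peak, whereas those of S100a6 and Flg did not.

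S100a peaks were much stronger than skin gene peaks in every library. Levels are log2 read counts per peak, scaled by the authors to the largest library (log2 scaled reads). The median S100a peak was at 8.08, 7.67 and 8.29 in WT replicates 1, 2 and 3, where the median skin gene peak was at 5.73, 5.40 and 5.75. The difference was 2.39 ± 0.14 (SD, n = 3 libraries) in WT and 2.21 ± 0.415 (SD, n = 3) in KO, with KO values of 2.42, 1.73 and 2.49. The low value came from KO replicate 2, whose median S100a peak was at 7.38, while its median skin gene peak was at 5.65. In WT, replicate 2 also had the lowest difference, at 2.26. Among all peaks the median S100a peak stood at percentile 91.0 of WT level and the median skin gene peak at percentile 46.7. S100a peaks were also wider, with a median of 1575 bp against 600 bp, and per kb of peak the WT difference fell to 1.00 on the log2 scale.

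**Figure D1:**
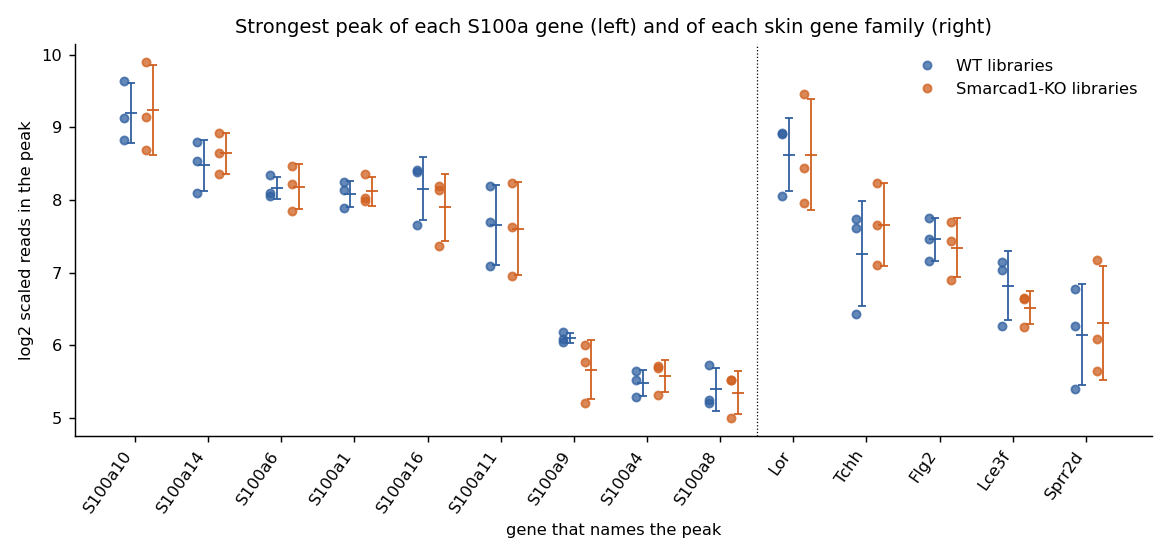
Levels in log2 scaled reads (vertical axis) of the strongest peak of each S100a gene and of each skin gene family with a peak, with 1 point per library (blue, 3 WT; orange, 3 Smarcad1-KO) and bars for the mean and SD. S100a10, S100a14, S100a6, S100a1, S100a16 and S100a11 have WT means of 7.66 to 9.19, S100a9, S100a4 and S100a8 of 5.39 to 6.11, and Lor stands above the other skin families at 8.63.

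By total level, the S100a genes themselves fell into a strong and a weak set. S100a10, the partner of annexin A2 at the plasma membrane, had the strongest peak of all members, which covers its start (chr3:93554251-93557100). It was at 9.12, 8.82 and 9.64 in the WT libraries and 9.14, 8.68 and 9.90 in the KO libraries, which placed it at percentile 97.9 of all peaks in WT. The KO values extended slightly beyond the WT values at both ends. A further peak named for S100a10, 3.26 kb beyond the gene, was at 8.06, 7.69 and 8.54 in WT and 8.11, 7.40 and 8.71 in KO. S100a14, an epithelial S100 gene, followed with 8.54, 8.10 and 8.79 in WT and 8.64, 8.36 and 8.92 in KO. Its range touched that of S100a6 (calcyclin), which was at 8.10, 8.05 and 8.34 in WT and 8.22, 7.85 and 8.47 in KO. S100a6, S100a16 and S100a1 had WT means of 8.17 ± 0.157, 8.15 ± 0.434 and 8.09 ± 0.181 (SD, n = 3), which did not differ beyond their spread. S100a11, which binds annexin A1, was at 7.70, 7.09 and 8.19 in WT and 7.63, 6.95 and 8.23 in KO, with its peak over the start (chr3:93520051-93521400).

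The weak set comprised S100a genes of leukocytes and stroma. S100a8 and S100a9 encode the subunits of calprotectin, an abundant neutrophil protein, and S100a4 is known from fibroblasts and immune cells. The peak named for S100a8 lay 4.33 kb from the gene and was at 5.73, 5.20 and 5.25 in WT and 5.52, 5.52 and 5.00 in KO. The S100a4 peak was at 5.29, 5.52 and 5.64 in WT and 5.71, 5.69 and 5.32 in KO, a range that overlaps that of S100a8. S100a9 stood slightly higher in WT, at 6.18, 6.09 and 6.04, and below every WT value in KO, at 5.21, 5.77 and 6.00. Its difference of -0.45 on the log2 scale (SE 0.267) had an unadjusted p of 0.115 and an adjusted p of 1 in limma with Benjamini-Hochberg adjustment over all peaks. Per kb of peak, the order of WT levels on the log2 scale was S100a10 at 7.68, S100a6 at 7.58, S100a16 at 7.43, S100a14 at 7.30, S100a11 at 7.23, S100a1 at 6.92, S100a9 at 6.84, S100a8 at 6.54 and S100a4 at 6.22. The gap between S100a11 and S100a9 in total level, 7.66 ± 0.552 against 6.11 ± 0.0705 (SD, n = 3), thus had no counterpart per kb, where S100a1 at 6.92 and S100a9 at 6.84 were neighbours. In libraries of whole crypts, less accessible DNA per cell and fewer cells of a type cannot be told apart. Of 9 leukocyte markers, 4 had a named peak. Ptprc, Itgam and Csf3r differed by -0.26, -0.25 and -0.27 in KO, Mpo by 0.55, and the list summed to 393 to 491 scaled reads in WT and 390 to 429 in KO. No peak carried the names of Cd3e, Elane, Cxcr2 or Spi1, and the part of leukocytes in the S100a9 value was not tested.

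Among skin genes, Lor was the exception in total level. Lor encodes loricrin, the most abundant protein of the cornified envelope, and its peak (chr3:92080351-92083500) covers its start and nearly all of the gene. It was at 8.90, 8.05 and 8.92 in WT and 8.44, 7.96 and 9.46 in KO, at percentile 95 of all peaks in WT and 58.6% GC over 3150 bp. Per kb it reached 6.97 on the log2 scale, close to S100a1 at 6.92 and to other skin gene peaks. Peaks named for Tchh were at 6.99 and 6.83 per kb, and the Sprr2d peak at 6.88. The strongest peaks of Flg2 and Tchh, which belong to the S100-fused genes, lay in coding exons, while the peak named for Flg (WT mean 6.45) lay 1.52 kb outside the gene. Flg2 (chr3:93201451-93203850) was at 7.46, 7.16 and 7.75 in WT and 7.43, 7.70 and 6.90 in KO, and lay 4.17 kb from the Flg2 start. Tchh, the hair follicle protein trichohyalin (chr3:93444151-93445500, 61.7% GC), was at 7.74, 6.43 and 7.61 in WT and 7.65, 7.10 and 8.23 in KO. Flg2 and Tchh thus had their signal in a coding exon and no peak within 1 kb of the start. The Lce and Sprr families were weak by total level. The strongest Lce peak, 4.47 kb beyond Lce3f (chr3:92997901-92999250), was at 7.04, 6.27 and 7.15 in WT and 6.65, 6.25 and 6.64 in KO, and the strongest Sprr peak, 2.29 kb from Sprr2d, was at 6.26, 5.40 and 6.77 in WT and 6.08, 5.65 and 7.17 in KO with 86.5% of its bases masked as repeats. Lce peaks ranged from 5.13 to 6.82 in WT mean and Sprr peaks from 4.98 to 6.14, around the median of all peaks at 5.79.

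Strength followed width in the whole locus. Over the 91 members, WT level correlated with peak width (Pearson 0.89, Spearman 0.93) and hardly with GC content (Pearson 0.20, Spearman 0.09). Within the 39 named members the GC correlation was 0.48, with 0.50 for the ratio of observed to expected CpG. These are descriptions across peaks that share 6 libraries, and a wider peak also has more room for reads.

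**Figure D2:**
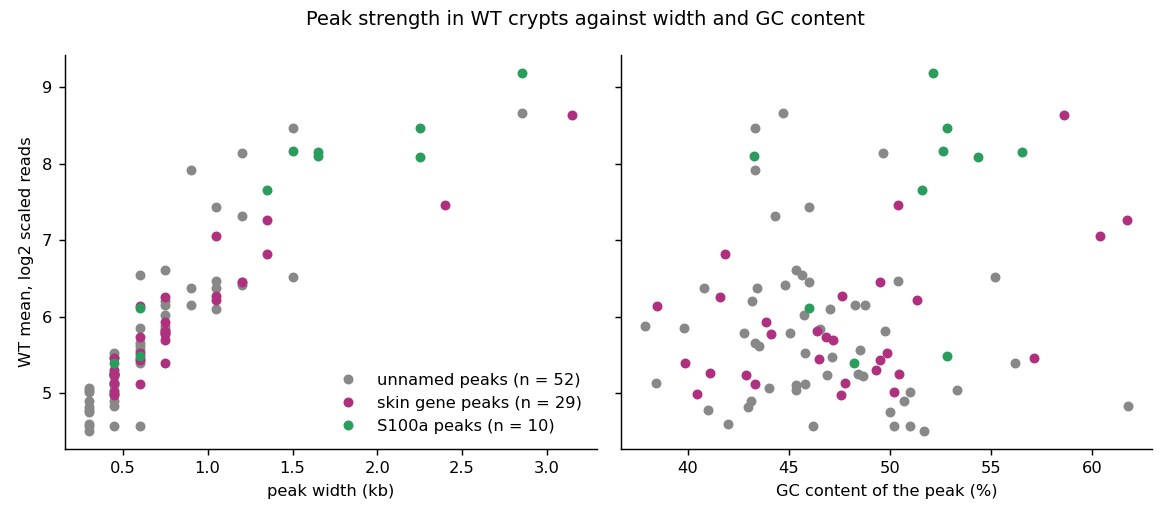
WT mean level in log2 scaled reads (vertical axis) of the 91 members against peak width in kb (left) and GC content in percent (right), coloured by class. The strong S100a peaks and Lor lie at widths of 1350 to 3150 bp. The right edge of the GC panel holds Lor (58.6%), the Tchh peaks (60.4% and 61.7%) and a weak unnamed peak (61.8%, WT mean 4.84).

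The 52 unnamed peaks were mostly intergenic (49 of 52), and their levels varied along the locus. With the nearest annotated gene as the guide, a grouping chosen after the values were seen, 8 lay nearest to S100a10 or S100a11, 20 to skin genes, 5 to genes of the Tdpoz cluster and 19 to other genes. The 8 near S100a10 and S100a11 had a median WT level of 7.67, those near skin genes 5.83, those near other genes 5.12 and those near the Tdpoz cluster 4.84. The 5 strongest unnamed peaks were all among the first. They lay 13.49 kb from S100a11 (WT mean 8.14, start 93505801), 10.56 kb from S100a11 on the other side (7.92, start 93536851), and 14.21, 31.31 and 40.61 kb from S100a10 (8.46, 8.66 and 7.43, starts 93578851, 93595951 and 93605251). The strongest, 2850 bp wide, was at 8.50, 8.38 and 9.11 in WT and 8.69, 8.43 and 9.23 in KO. In the skin gene part, the strongest peaks after Lor were those of Flg2 at a WT mean of 7.46, an unnamed peak between Lce3e and Lce3f at 7.32 and Tchh at 7.26, levels similar to the weakest of these 5. At the bounds of the window, the first unnamed peak inside had a WT mean of 5.40 and the last one before it 5.05, and the last one inside had 4.84 and the first one after it 6.45.

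**Figure D3:**
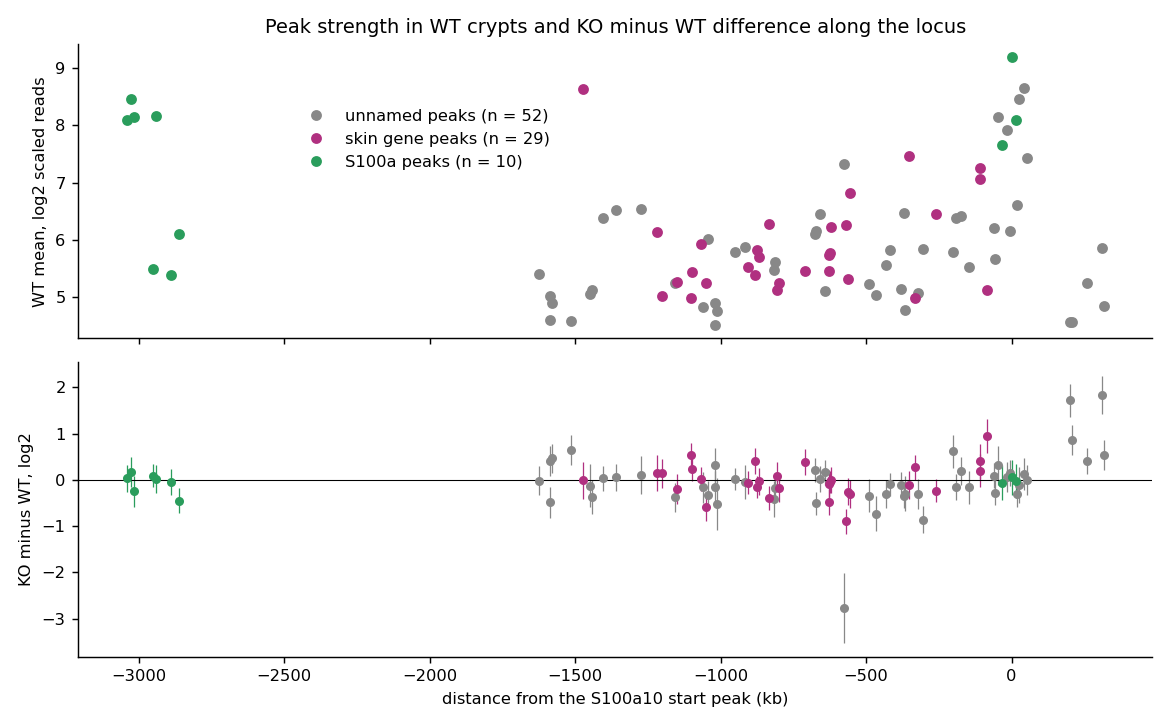
WT mean level in log2 scaled reads (top) and KO minus WT difference with its SE (bottom, log2) of the 91 members by distance in kb from the S100a10 start peak. Strong S100a peaks stand at both ends of the complex, skin gene peaks between them are lower except for Lor, and the KO differences lie around 0 except for the unnamed peak at -2.78 and those beyond S100a10 that reach 1.72 and 1.84.

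Loss of Smarcad1 was compared with WT by limma on all 123510 peaks with Benjamini-Hochberg adjustment. At an adjusted p below 0.05, 0 members were called, as were 0% of all peaks, and 0 members were called with voom on the recovered reads. The smallest adjusted p among members was 0.888. At an unadjusted p below 0.05 there were 7 members (7.69%), against 2.28% of all peaks, of which 4 were higher in KO (4.40%, against 0.909% of all peaks) and 3 lower (3.30%, against 1.37%). With voom the number was 9, against 2947 of all peaks (2.39%). Of the 4 higher members, 3 had a WT level per kb below percentile 1 of all peaks, and the sources used here do not state which libraries the peaks were called from. If KO reads helped to call them, a higher value in KO is not independent of the call, which was not tested. The 3 KO values all lay above or all below the 3 WT values at 18 members (19.8%), against 6.80% of all peaks, with 8 higher (8.79%, against 2.70%) and 10 lower (11%, against 4.10%). The median difference was -0.03 over members and -0.02 over all peaks. Without KO replicate 2, 3 members were called (adjusted p of 0.0182, 0.0196 and 0.0353), of 30 peaks in all. With any other library left out, 0 members were called. The 3 members were the unnamed peaks at 92978251, 93755401 and 93863701 described in turn. The same 3 were called, of 272 peaks in all, when the fit took the replicate number as a block.

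The differences of S100a and skin gene peaks were centred near 0. The median difference was 0 for the 10 S100a peaks, on a range from -0.45 to 0.16, and -0.03 for the 29 skin gene peaks, on a range from -0.90 to 0.95. At an unadjusted p below 0.05 there were 0 S100a peaks and 2 skin gene peaks (Tchhl1 and Lce3f, 6.90%), against 2.28% of all peaks. Values did not overlap between KO and WT at 1 of 10 S100a peaks (S100a9, 10.0%) and at 8 of 29 skin gene peaks (27.6%), against 6.80% of all peaks. Of these 8, 3 were higher in KO (10.3%, against 2.70%) and 5 lower (17.2%, against 4.10%). Of 15 Lce peaks 12 had a lower mean in KO (median -0.09), while 5 of 7 Sprr peaks and all 3 Tchh or Tchhl1 peaks had a higher one. Over all peaks 53.1% had a lower mean in KO, as had 56.0% of members, and the family counts carry no test.

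**Figure D4:**
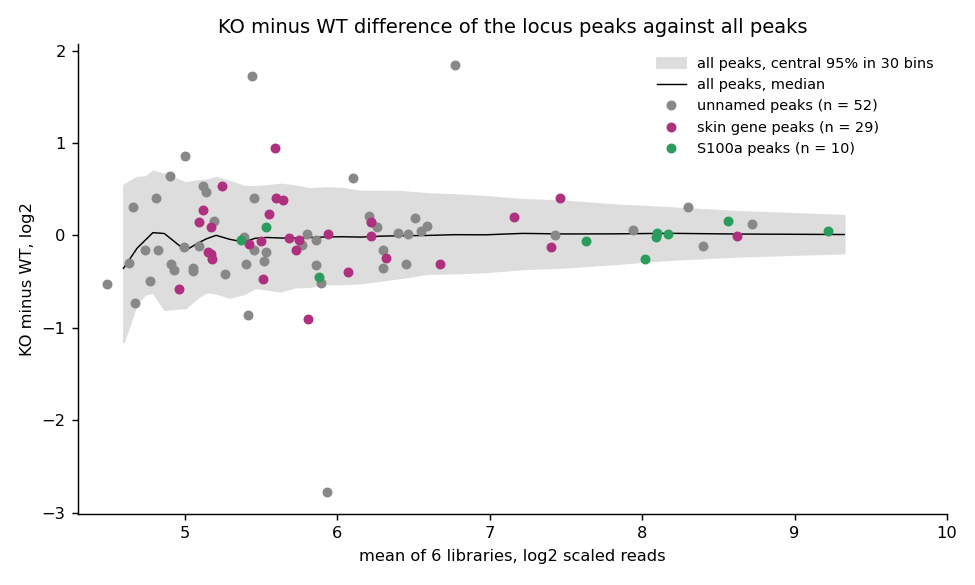
KO minus WT difference on the log2 scale (vertical axis) against mean level in log2 scaled reads (horizontal axis) for the 91 members, with the central 95% and the median of all 123510 peaks in 30 bins of level in grey and black. The S100a peaks lie near 0 and inside or at the edge of the grey band, and the unnamed peaks at -2.78, 1.72 and 1.84 lie far outside it.

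The lowest difference was at an unnamed intergenic peak in the Lce3 cluster, 9.97 kb beyond Lce3e and before Lce3f (chr3:92978251-92979450). It was at 7.35, 7.07 and 7.55 in the WT libraries and at 6.29, 5.47 and 1.84 in the KO libraries, where the last value stands for 0 reads. No KO value reached a WT value, and the KO libraries were spread far more widely than the WT libraries. The reads behind these levels were 83, 73 and 187 in WT and 36, 31 and 0 in KO. On the scale of the largest library, WT held 161 ± 26.4 scaled reads (SD, n = 3), KO replicate 1 held 48.6% of this mean and KO replicate 2 27.5%. In KO replicate 3, 40.4 reads would match the WT mean, and a count of 0 allows up to 3 reads, or 7.42% of it, for counting error only. The difference of -2.78 (SE 0.757), with 0.9 of a read written for 0 reads, was the lowest of all 123510 peaks. Its rank from the lowest was also 1 with a pseudocount of 5 (-2.33) and with quantile normalization (-2.43). This rank rests on KO replicate 3, and was 33 when that library was left out. The unadjusted p of 0.00232 in limma had rank 107 among all peaks (adjusted p of 1), with an SD of 0.24 within WT and 2.37 within KO. Without KO replicate 3 the difference was -1.44. The peak stood at percentile 83.0 of WT level, matched a single place in the genome and had 32.7% of its bases masked as repeats. Its printed centre held 1 AP-1 and 1 GATA match.

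The next peak along the chromosome also had lower values in KO. It lay 4.98 kb before Lce3f (chr3:92986501-92987250) and was at 5.97, 6.24 and 6.58 in WT and 5.12, 5.16 and 5.80 in KO, a difference of -0.90 (SE 0.279, unadjusted p of 0.00575, adjusted p of 1). All 3 KO values were below all 3 WT values. The other peaks named for Lce3f, at its start and beyond it, differed by -0.26 and -0.31, with overlapping values. On the other side, the Lce3b peak over its coding exon differed by -0.01. Another lower member lay 24.67 kb before Flg (chr3:93248101-93248850), at 6.06, 5.34 and 6.13 in WT and 5.21, 5.16 and 4.58 in KO (-0.86, SE 0.299, unadjusted p of 0.012, adjusted p of 1). Lower differences with an unadjusted p above 0.05 followed at an unnamed peak near Gm4858 (-0.73) and 12.94 kb from 2310050C09Rik (-0.51), the latter without overlap between groups.

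Of the 4 members higher in KO at an unadjusted p below 0.05, 3 lay beyond S100a10 towards the Tdpoz genes, which encode TRAF-domain proteins known from the early embryo. The peak 36.58 kb from Tdpoz3 (chr3:93863701-93864300) was at 5.83, 5.20 and 6.52 in WT and 7.33, 7.07 and 8.65 in KO, with 29, 20 and 92 reads in WT and 74, 94 and 101 in KO. Every KO value was above every WT value. The difference was 1.84 (SE 0.41, 3.57-fold, unadjusted p of 0.000473, adjusted p of 1), the highest of the 8756 peaks of chromosome 3, and 1.35 without KO replicate 3. The peak 17.00 kb from Gm5773 (chr3:93755401-93756000) was at 4.14, 4.88 and 4.70 in WT and 6.08, 5.69 and 7.13 in KO, from 9, 16 and 26 reads in WT and 31, 36 and 35 in KO. Its difference of 1.72 (SE 0.352, 3.30-fold) had an unadjusted p of 0.000209, the smallest of chromosome 3, and an adjusted p of 0.888. Its WT level per kb was at percentile 0.00648 of all peaks. Both peaks consist almost wholly of repeats, with 92.7% and 91.8% of bases masked, and the latter matched 11 places in the genome at 95% identity, while the former matched 1. Reads were kept at a mapping quality of at least 20, which removes reads that place equally well at several copies.

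The other members of this stretch had higher means in KO with smaller differences. A peak 11.75 kb from Gm5773 (chr3:93760801-93761250) was at 4.97, 4.20 and 4.52 in WT and 5.03, 5.81 and 5.46 in KO (0.86, SE 0.329, unadjusted p of 0.0191, adjusted p of 1), with a WT level per kb at percentile 0.131 of all peaks. The remaining 2 unnamed peaks near Tdpoz3 differed by 0.40 and 0.54, with overlapping values. All 5 unnamed peaks of the stretch, a group formed after the values were seen, had a higher mean in KO, as had 57876 of all 123510 peaks. Peaks named for Gm5773 itself, which are no members, differed by 0.54 and 0.52, both without overlap. Among skin genes, Tchhl1, a relative of trichohyalin, was at 5.06, 4.97 and 5.32 in WT and 5.65, 5.47 and 7.08 in KO (chr3:93469501-93470100). All KO values were higher, with KO replicate 3 well above the other two. The difference was 0.95 (SE 0.363, unadjusted p of 0.0195, adjusted p of 1), and 0.44 without KO replicate 3, and its WT level per kb was at percentile 0.676. A peak 2.65 kb from Sprr3 differed by 0.53 (unadjusted p of 0.0638).

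**Figure D5:**
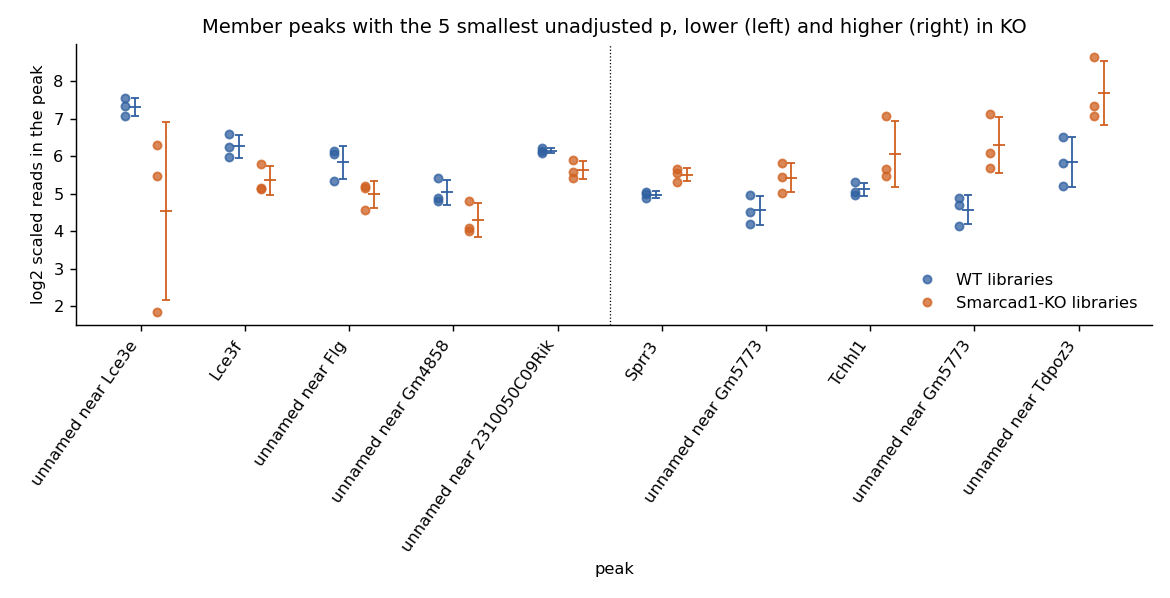
Levels in log2 scaled reads (vertical axis) of the 5 members with the smallest unadjusted p in each direction, with 1 point per library (blue, 3 WT; orange, 3 Smarcad1-KO) and bars for the mean and SD. The lowest orange point, at 1.84 near Lce3e, is a library with 0 reads, and the 3 points of KO near Tdpoz3 lie at 7.07 to 8.65, above the WT points at 5.20 to 6.52.

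Genes of the epidermal programme elsewhere in the genome covered a wide range of levels. Of 20 such genes outside the window, 14 had a named peak. The strongest peaks of Dsp, Ppl and Evpl (desmoplakin, periplakin and envoplakin) had WT means of 9.27, 9.07 and 9.10, and those of the transcription factor genes Ovol1, Grhl3 and Trp63 of 8.95, 8.39 and 8.03. Desmoplakin anchors keratins at junctions in simple epithelia too. Aloxe3, Casp14, Krt10, Abca12, Tgm3 and Klk7 lay between 6.26 and 7.33. Krt14 and Krt1, keratins of the basal and upper epidermis, stood at 5.51 and 5.30. None of the 37 peaks was called. At an unadjusted p below 0.05, 2 were higher (against 0.909% of all peaks) and 1 was lower (against 1.37% of all peaks). That 1 was the strongest peak of Tgm3, an epidermal transglutaminase (-0.71, unadjusted p of 0.0239, adjusted p of 1). S100 partners and receptors had a named peak for 7 of 9 genes, led by Bsg at 9.08, Anxa2 at 8.86 and Anxa11 at 8.57. The differences at the strongest peaks of the 7 genes ran from -0.01 (Anxa2) to 0.61 (Tlr4, a receptor for calprotectin, unadjusted p of 0.0822, adjusted p of 1). Of the 37 peaks of this list 0 were called. At an unadjusted p below 0.05, 1 was higher and 0 were lower, against the same 0.909% and 1.37% of all peaks. Of the other S100 genes, S100pbp stood at 8.63, S100b at 6.03 and S100z at 5.10, with 0 of 8 peaks called.

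Markers of the intestinal epithelium had the highest levels among the marker lists. The strongest peaks of Cdx2, Hnf4a and Cdx1, the transcription factors of this epithelium, stood at 9.73, 9.67 and 9.63 in WT, and those of Lgr5 and Olfm4, the stem cell markers, at 8.59 and 8.30, while no peak carried the names of Vil1, Epcam or Muc2. Keratinocyte markers had a named peak for 5 of 7 genes, with a median of 6.75 for the strongest peak of a gene, against 8.62 for the epithelial list and 6.46 for fibroblast and endothelium markers. Their summed levels were 1041 to 1522 scaled reads in WT and 1174 to 1720 in KO, and Krt5 and Tgm1 had no named peak. A peak carries a single name, so that a gene without one may still have a peak.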

How the data were processed

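ATAC-seq was analysed in 3 WT and 3 Smarcad1-KO libraries of small intestinal crypt nuclei, grouped by sample title. Libraries were made from about 50000 cells each. Per the submitters' processing notes and the study's methods, the authors trimmed reads with Trim Galore (0.4.1), mapped them to GRCm38 with Bowtie2 (2.2.5), imported reads into SeqMonk at a mapping quality cutoff of 20 and a fragment limit of 1000 bp without duplicates, and called MACS peaks there with default settings. The values the authors deposited are log2 read counts per peak, scaled to the largest library. A second deposited table holds peaks selected by the authors with edgeR and their adjusted p-values, and was not used. On the linear scale the deposited values are whole multiples of the value of 1 read (tolerance 0.001, 100% of values), a peak with 0 reads being written as 0.9 of a read. The reads carry no molecular identifiers as far as the sources state, so limits from 0 reads cover counting error only. The table has 0 per-library columns without a sample.

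KO was compared with WT over all 123510 peaks by a two-sided limma test (3.58.1, R 4.3.3; lmFit, then eBayes with an intensity trend), applied to the log2 values as deposited in place of the authors' edgeR, and the recovered reads were tested with voom. The fit was tested on simulated data. Members and gene lists were chosen with earlier results of these data known. Named peaks were the strongest peak of each S100a gene and skin gene family, the 5 members with the smallest unadjusted p in each direction, every member called, the 5 strongest unnamed members and the strongest peak of each listed gene described. Any other peak given was chosen after its values were seen. Positions came from GENCODE vM21 (GRCm38), and copies of a peak were counted with BLAST 2.17.0 at 95% identity over 80% of the peak. The alternatives were median centring, quantile normalization, a pseudocount of 5, a minimum mean of 20 reads, voom on the recovered reads, each library left out, the replicate block, an adjusted p threshold of 0.1, named peaks alone, values per kb and the strongest peak of each gene. One marker of the lists is not reported here.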

Additional observations from a re-analysis of the deposited data

How the results depend on the processing

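The members called rose from 0 to 3 without Smarcad1-KO replicate 2 (30 of all peaks) and in no other leave-one-out fit (range 0 to 3), and stayed at 0 with median centring (2 of all peaks called), quantile normalization (3 of all), a pseudocount of 5, a minimum mean of 20 reads (which removed 0 peaks), voom (3 of all) and an adjusted p threshold of 0.1. With the replicate number as a block (replicate block), 3 members were called, of 272 peaks in all, and 11 members had an unadjusted p below 0.05 (8491 of all peaks), with adjusted p of 4.26e-28 at 92978251, 1.25e-06 at 93755401 and 8.09e-19 at 93863701. At 92978251, KO minus WT was -1.05, -1.59 and -5.7 for replicate numbers 1, 2 and 3. Its SE was nevertheless 0.234 with the block, against 0.757 in the main fit. In limma the variance of a peak is drawn towards that of all peaks at its level. The adjusted p of 4.26e-28 therefore does not measure the spread of this peak between libraries. Same-numbered libraries deviated together with correlations of 0.0361, 0.418 and 0.407 for numbers 1, 2 and 3. These values do not settle whether the numbers pair the libraries. The main fit had no block, and its count of 0 members called depends on that choice. Among the 39 named members alone, 2 had an unadjusted p below 0.05 (against 2.28% of all peaks). In 9 of the 39 the groups did not overlap (against 6.80% of all peaks). The S100a excess over skin genes in WT was 1.00 per kb instead of 2.39. Leaving out 1 library gave 5 to 10 members at an unadjusted p below 0.05 (0.944% to 4.56% of all peaks), 20 to 27 without overlap (11.2% to 20.7% of all peaks, since 2 libraries then face 3), a median member difference of -0.16 to 0.08, an S100a excess of 2.31 to 2.45 and an S100a minus skin gene KO difference of -0.08 to 0.13.

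Of 348 values for named peaks under the alternatives, 301 kept direction and call, 6 became called and 41 changed sign, 36 of these when 1 library was left out. Sign changes on all libraries were for S100a6 (-0.0026) and S100a8 (0.02) with quantile normalization, S100a8 (0.14) with voom, and Lor (0.0017) and the unnamed peak at 93605251 (0.0049) with median centring. With each library left out in turn, the differences of the peaks that changed sign ranged from -0.09 to 0.11 for S100a1, -0.02 to 0.32 for S100a14, -0.50 to 0.01 for S100a16, -0.01 to 0.21 for S100a4, -0.13 to 0.18 for S100a6, -0.14 to 0.13 for S100a8, -0.43 to 0.32 for Lor, -0.28 to 0.48 for Sprr2d, -0.30 to 0.10 for Flg2, -0.01 to 0.68 for Tchh, -0.03 to 0.80 at 93505801, -0.37 to 0.27 for S100a11, -0.14 to 0.24 at 93536851, -0.28 to 0.33 for S100a10, -0.45 to 0.20 at 93578851, -0.11 to 0.34 at 93595951 and -0.33 to 0.23 at 93605251. Members held 0 to 796 reads per library, and KO replicate 3, with 4339306 reads in peaks, was the shallowest, so that 1 read there was worth 3.99 scaled reads.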
